A study of Mus musculus with 55 samples.

Results

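The 40 mouse genes described here encode the machinery that stores, docks, fuses and retrieves synaptic vesicles at the presynaptic terminal. They were given as a list of symbols and were looked up among the genes of 2 RNA-seq experiments on cultured neurons, a maturation experiment with 28492 genes that have a counted transcript and a stimuli experiment with 28216. A counted transcript was found for 39 of the 40 in both experiments, and Syt5 was not analysed here. Of these 39 genes, 37 passed the filter on low counts in every fit (more than 5 CPM, counts scaled to a common library size, in at least 2 samples). The other two, Rims1, between 0 and 2.73 CPM in the maturation experiment and between 0 and 2.81 CPM in the stimuli experiment, and Rab3a, between 0 and 1.29 CPM and between 0 and 1.69 CPM, had too few counts to be tested. Of all counts 18.5% and 19.2% lay on transcripts that matched no gene of the annotation, so these few counts do not show that the genes themselves were low. By role the 40 genes fall into 9 vesicle proteins, 10 calcium sensors and their relatives, 9 SNAREs and SNARE partners, 9 active zone and priming proteins, and 3 proteins of vesicle retrieval.

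The neurons were dissociated from the forebrain (cortex and hippocampus together) of CD1 mouse embryos of mixed sex, and RNA was taken from whole cultures. In the maturation experiment (28 samples) cultures of 7 days in vitro (7DIV) and of 21DIV were unstimulated (basal), depolarised with 55 mM KCl, or treated with 4AP+Bic, that is 50 μM bicuculline together with 2.5 mM 4-aminopyridine, and were collected 15 or 180 min later. Bicuculline (Bic) blocks GABA-A receptors, which releases the firing of the network from inhibition, and 4-aminopyridine blocks potassium channels. Each of these 10 groups had 3 samples except 4AP+Bic at 21DIV, with 2 at each time. The labels of the older cultures of this experiment give 21 in one place and 23 DIV in another. In the stimuli experiment (27 samples, all 21DIV) the cultures were basal (n = 3), received 55 mM KCl or 50 μM Bic without 4-aminopyridine (n = 2 at each of 15, 45 and 180 min), or were silenced for 48 h with 1 μM tetrodotoxin (TTX), a blocker of voltage-gated sodium channels. The silenced cultures were collected without (basal TTX, n = 4) or 15, 45 or 180 min after the withdrawal of TTX (TTXw, n = 3, 2 and 3). Nothing in the labels says that samples of a group came from separate cultures, so p-values measure the spread between these samples, which may be technical.

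At a synapse, vesicles filled with neurotransmitter are tethered at the active zone by scaffolds such as Bassoon, Piccolo and RIM, and are made ready for fusion by Munc13 proteins. An action potential opens calcium channels, synaptotagmins sense the calcium, and the SNARE complex of synaptobrevin, syntaxin and SNAP-25 pulls the membranes together, held in check and aided by complexins. NSF and SNAP proteins then take the complex apart, and dynamin, amphiphysin and synaptojanin recover the membrane. Forebrain neurons build this machinery while their synapses form, and synapsins, which tie vesicles into a reserve pool, are among its best-known markers.

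Counts on genes per sample ranged from 1659717 to 4474972 at 7DIV (median 2867841), from 1784169 to 14012872 at 21DIV of the maturation experiment (median 5088484) and from 1177504 to 3909485 in the stimuli experiment (median 2384141). Values below are CPM scaled by TMM factors (normalized CPM). A gene was called changed at an adjusted p under 0.05 and at least 1.5-fold, with the quasi-likelihood test of edgeR and p-values adjusted over all genes tested by the Benjamini-Hochberg method. A difference of a response between stages was called at an adjusted p under 0.05. Log2 fold changes are given ± SE. The counts are of 3′ ends, and levels are therefore compared between samples, not between genes. For 6 members, Doc2a, Rab3a, Syn1, Syp, Syt2 and Unc13a, a gene on the opposite strand overlaps their last 1000 bases, and whether the counting used the strand is not stated, so their reads and those of Ino80e, Mpv17l2, Araf, Gm14703, Ppp1r12b and Colgalt1 may not have been told apart. Early activity genes served as a check of the stimuli. In 7DIV cultures after KCl for 15 min, and after 4AP+Bic at both times, none of Fos, Arc and Npas4 was called, and the same held at TTXw 15 min. Each of the other stimulus comparisons had at least 1 of the 3 called higher. The summed microglial markers were at most 37.8 CPM in any sample, with Tmem119 without a count, and the summed vascular markers at most 45.4 CPM, with Cldn5 without a count.

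The first comparison asked how the release machinery differs between unstimulated young and mature cultures. At 21DIV, 17 of the 37 tested genes were higher than at 7DIV and 4 were lower, with a median log2 fold change of 0.58 over the 37 and of 0.01 over all genes tested. Of all 10510 genes tested, 33.1% were called, 18.2% higher and 14.9% lower. All 7DIV samples had wells lettered A or B, and all 21DIV samples of this experiment C, D or E. Stage and well letter therefore cannot be told apart. Of the SNAREs and their partners 7 of 9 were called higher and 0 lower, with a median log2 fold change of 0.84. Among the vesicle proteins 4 of 9 were higher and 1 lower (median 0.42). Among the 9 tested calcium sensors 3 were higher and 1 lower (median 0.58). The 7 tested active zone and priming genes were split, 2 higher and 2 lower (median −0.16), and 1 of the 3 retrieval genes was higher. The groups did not overlap for any of the 21 called genes, as for 97.3% of all genes called here. Syt2, counted among the 21 and among the 3 higher calcium sensors, had no count at 7DIV. It passed the filter only through its 21DIV samples, so its call and lack of overlap follow largely from the filter. With Syt2 set at the bound given below, the median over the 37 was 0.58. It could not differ, because that bound also lies above the median. The plot of the 37 genes in unstimulated cultures shows the samples one by one.

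**Figure D1:**
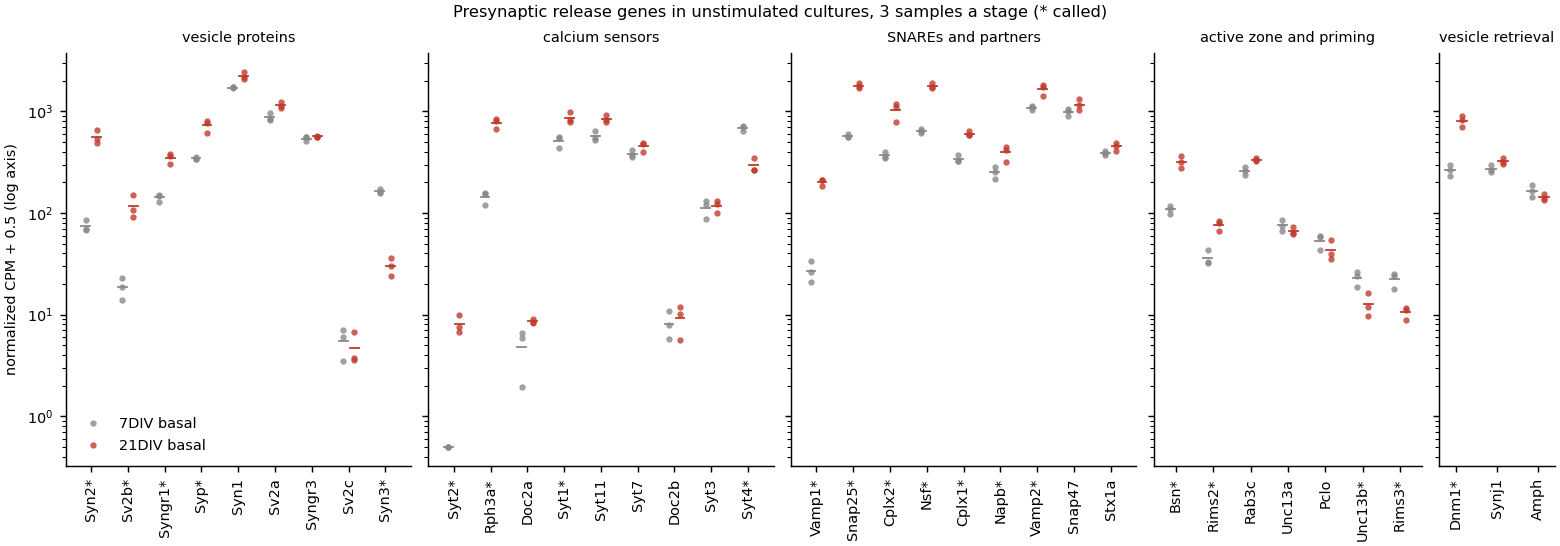
Normalized CPM plus 0.5 (log axis) of the 37 tested release genes in unstimulated cultures of the maturation experiment, by role, with 3 samples at 7DIV in grey and 3 at 21DIV in red, a line at each mean and an asterisk at each called gene. Syn2, Vamp1, Sv2b and Rph3a lie far higher at 21DIV than at 7DIV, while Syn3, Syt4, Rims3 and Unc13b lie lower.

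Among the vesicle proteins the synapsins changed in opposite directions. Syn2, synapsin II, was at 84.3, 68.7 and 68 CPM in the 3 samples at 7DIV and at 491, 531 and 651 CPM at 21DIV. Syn3, synapsin III, known as the early synapsin of developing neurons, went from 172, 162 and 158 CPM to 23.4, 35.8 and 29.9 CPM. Every 21DIV sample was thus above every 7DIV sample for Syn2 and below it for Syn3, with log2 fold changes of 2.95 ± 0.16 (adjusted p = 1.6e-08) and −2.44 ± 0.17 (adjusted p = 2.3e-07). The log2 ratio of Syn2 to Syn3 counts changed from −1.16 ± 0.12 (SD, n = 3) to 4.24 ± 0.31, and this and the other ratios between relatives were not tested. Syn1, synapsin I, differed by a log2 fold change of 0.42 ± 0.10, under the 1.5-fold limit. Sv2b, a vesicle membrane glycoprotein that binds synaptotagmin, went from 22.3, 13.5 and 18.4 CPM to 91.5, 106 and 149 CPM (2.69 ± 0.23, adjusted p = 1.2e-06), while its relative Sv2a differed by 0.41 ± 0.11, also under the limit. The log2 ratio of Sv2b to Sv2a accordingly moved from −5.63 ± 0.36 to −3.34 ± 0.29. Syngr1, synaptogyrin 1, rose from between 129 and 151 to between 302 and 379 CPM (1.31 ± 0.14), and Syp, synaptophysin, from between 339 and 359 to between 613 and 795 CPM (1.10 ± 0.13). Syngr3 and Sv2c were not called (0.10 and −0.20).

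Among the calcium sensors, Rph3a, rabphilin, which binds Rab3 on vesicles, was at 155, 156 and 119 CPM at 7DIV and at 672, 835 and 795 CPM at 21DIV (2.45 ± 0.15, adjusted p = 4.8e-08). Syt2, a fast calcium sensor known from inhibitory synapses, had no count in the 3 samples at 7DIV and was at 7.09, 6.26 and 9.4 CPM at 21DIV. Against a floor of 3 counts per library, 1.36 CPM, the mean of Syt2 was at least 5.59-fold higher at 21DIV. Syt1, the main fast calcium sensor of forebrain synapses, rose from 557, 437 and 546 CPM to 780, 829 and 987 CPM (0.78 ± 0.13). Syt4, a synaptotagmin that binds calcium poorly and is also known as an activity-regulated gene, went the other way, from 705, 637 and 723 CPM to 350, 263 and 266 CPM (−1.21 ± 0.14, adjusted p = 1.3e-05). The log2 ratio of Syt4 to Syt1 went from 0.43 ± 0.10 (SD, n = 3) at 7DIV to −1.57 ± 0.38 at 21DIV. Syt11 stayed just inside the 1.5-fold limit (0.58 ± 0.12, adjusted p = 0.0018), and Syt3, Syt7, Doc2a and Doc2b were not called.

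Among the SNAREs and their partners, Vamp1, synaptobrevin 1, went from 33.2, 25.8 and 20.3 CPM to 209, 183 and 212 CPM (2.98 ± 0.19, adjusted p = 6.6e-08). Vamp2, the synaptobrevin of most forebrain synapses, differed less (0.64 ± 0.12), and the log2 ratio of Vamp1 to Vamp2 moved from −5.39 ± 0.27 to −3.04 ± 0.09. Snap25, the plasma membrane SNARE, rose from between 561 and 599 to between 1690 and 1910 CPM (1.67 ± 0.11, adjusted p = 9.2e-08). Cplx2, complexin 2, was at 349, 399 and 355 CPM and then at 779, 1190 and 1100 CPM (1.5 ± 0.15), and Nsf, the ATPase that takes SNARE complexes apart, rose by the same log2 fold change (1.5 ± 0.11). Cplx1 (0.84 ± 0.12) and Napb, the SNAP adaptor of NSF (0.68 ± 0.15), were also called higher. Stx1a, the syntaxin of the complex, and Snap47 were not called (0.25 and 0.27).

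Active zone scaffolds and priming factors did not move together. Bsn, Bassoon, rose from between 96.3 and 118 to between 276 and 366 CPM (1.59 ± 0.15), and Rims2 from between 31.4 and 43.1 to between 65.9 and 83 CPM (1.12 ± 0.19). Rims3, a short RIM protein, fell from 23.7, 17.2 and 24.4 CPM to 11.2, 8.41 and 10.5 CPM (−1.10 ± 0.26, adjusted p = 0.0042), and the log2 ratio of Rims3 to Rims2 went from −0.72 ± 0.31 to −2.92 ± 0.38. Unc13b, Munc13-2, was at 18, 25.8 and 23.6 CPM at 7DIV and at 11.4, 15.7 and 9.29 CPM at 21DIV (−0.86 ± 0.27, adjusted p = 0.023), while Unc13a, Munc13-1, was not called (−0.16). Pclo, Piccolo, was not called either (−0.28). Of the retrieval genes, Dnm1, the neuronal dynamin, rose from between 232 and 296 to between 705 and 894 CPM (1.64 ± 0.14), and Amph and Synj1 were not called (−0.18 and 0.28).

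The 16 genes not called between the stages had log2 fold changes between −0.28 and 0.93, and 4 of them (Syn1, Sv2a, Syt11 and Rab3c) had an adjusted p under 0.05 with less than a 1.5-fold change. Summed over all members, normalized CPM went from between 12175 and 12287 at 7DIV to between 19128 and 21645 at 21DIV, while the sum of 16 pan-neuronal genes was between 16000 and 16238 and between 15650 and 16794. In bulk RNA, fewer cells of a type and less RNA per cell cannot be told apart. Of the 12 astrocyte markers 11 were higher at 21DIV, their sum going from between 1029 and 1325 to between 5497 and 6589 CPM, and all 9 tested markers of the oligodendrocyte lineage were higher, from between 474 and 750 to between 2497 and 3287 CPM. Markers of GABAergic neurons were higher for 4 and lower for 1 of 7 tested, those of glutamatergic neurons for 2 and 6 of 8. The part of these cells in the release genes' values was not tested. With samples scaled to the 16 pan-neuronal genes, a scaling added after the data were seen, the same counts of 17 higher and 4 lower were found. Of 83 other presynaptic genes listed, 70 were tested and 24 were called higher and 10 lower (median 0.16), with Syt17 (3.93) and Syt13 (3.62) rising most and Stxbp2 (−1.26) and Gap43 (−1.04) falling most. When 1 library was left out, Napb was no longer called without 7DIV basal replicate 4 (0.56), Vamp2 without that library (0.56) or 21DIV basal replicate 1 (0.57), and Unc13b without 7DIV basal replicate 3 (−0.80) or 4 (−0.85) or 21DIV basal replicate 3 (−0.68).

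The start sites of these genes were looked up because members of one family moved in different directions. RefSeq promoters of GRCm38.p6 (the build of the counts, mm10) were given for 30 of the 40 genes, and the 250 bases before the start were searched on both strands. The GC box GGGGCGGGG was found in 8 of the 30 (Rab3a, Rims1, Rims3, Sv2a, Syngr1, Syp, Unc13a and Unc13b), or 26.7%, and in 11.8% of all 27025 promoters. Genes that rose and genes that fell between the stages both hold it. The full cAMP response element TGACGTCA, bound by CREB, occurred in Syn1 alone (3.33% of the 30, 1.77% of all promoters), and its short form TGACG, which lies inside the full element, in 20% of the 30 and 19.8% of all promoters. The AP-1 motif TGAGTCA was found in Syt2 alone (3.33%, against 5.16% of all). These matches are letters in a window and do not show that a factor binds there. The stretches below carry the motif in capitals, and a gene can have several listed starts. The Unc13b stretch precedes an internal start, since the gene spans 43046193 to 43264873. The AP-1 match of Syt2 (134709106 to 134709135) also lies inside its gene, which begins at 134646534. Counts of 3′ ends do not show which start was used. Syngr1 and Syp rose and Rims3 and Unc13b fell between the stages, and Syn1 is the member with the full cAMP response element.
Syngr1, chr15:80091304-80091333, plus strand, GC box 14 bases before the start: gccgagcgcaggggagGGGGCGGGGgcgcc
Syp, chrX:7638520-7638549, plus strand, GC box 50 bases before the start: cgaggagtatGGGGCGGGGgggagccatgg
Rims3, chr4:120854723-120854752, plus strand, GC box on the other strand, 66 bases before the start: caccttcgggCCCCGCCCCatctggccccg
Unc13b, chr4:43058866-43058895, plus strand, GC box 77 bases before the start: tgctcccgggGGGGCGGGGtcggcagactg
Syn1, chrX:20921059-20921088, minus strand, cAMP response element 159 bases before the start: caaaggctgacTGACGTCActcactagccc

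The next comparisons asked how the release genes respond to stimulation at each stage. At 7DIV, 0 of the 37 were called after KCl for 15 min, 4AP+Bic for 15 min or 4AP+Bic for 180 min. Of all 11746 genes tested, 0% were called in each of the 3, and at an unadjusted p under 0.05 there were 659, 793 and 701 genes, with 4, 2 and 3 release genes among them. DESeq2 called 0 release genes in each as well, and 3, 3 and 0 genes in all. After 180 min of KCl 2 release genes were called, against 1.98% of all genes (1.05% higher and 0.936% lower). Syt4 was at 979, 1220 and 1190 CPM, above the 3 basal samples (705, 637 and 723 CPM), with a log2 fold change of 0.71 ± 0.19 (adjusted p = 0.037). Sv2b was at 7.72, 8.08 and 12.2 CPM, below its basal samples (22.3, 13.5 and 18.4 CPM), with a log2 fold change of −0.95 ± 0.26 (adjusted p = 0.045). Both calls were near the limit. Sv2b was lost without 7DIV basal replicate 2 (−0.79) or 4 (−0.94) or KCl 180 min replicate 1 (−0.83) or 2 (−0.85), and Syt4 without basal replicate 2 (0.73), 3 (0.66) or 4 (0.75) or KCl 180 min replicate 2 (0.66) or 3 (0.68), so that at most 1 member was called whichever of these libraries was left out. With scaling to the pan-neuronal genes Sv2b alone was called. The summed pan-neuronal genes were at 16757 to 17548 CPM here, against 16000 to 16238 CPM in basal cultures, and the summed astrocyte markers at 1381 to 1756 CPM, against 1029 to 1325 CPM, and the part of these cells in the result was not tested.

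At 21DIV 4 release genes were called after 15 min of KCl, 2 higher and 2 lower, against 6.25% of all genes (3.21% higher and 3.04% lower). Rims3 was at 18.4, 23.4 and 22.2 CPM, all above its basal samples (11.2, 8.41 and 10.5 CPM), a log2 fold change of 1.07 ± 0.20 (adjusted p = 0.00089). Syt4 was at 646, 667 and 426 CPM, against 350, 263 and 266 CPM in basal cultures (0.98 ± 0.19, adjusted p = 0.0011). Cplx2 was at 698, 645 and 627 CPM, below 779, 1190 and 1100 CPM (−0.64 ± 0.14, adjusted p = 0.0047), and Rims2 at 42, 54.6 and 49.6 CPM, below 65.9, 83 and 78.6 CPM (−0.64 ± 0.19, adjusted p = 0.03). None of the 4 overlapped with its basal samples, as held for 89.1% of all genes called. Syn2 (−0.53) and Syt1 (−0.37) also had an adjusted p under 0.05 but changed less than 1.5-fold. The summed pan-neuronal genes were at 12402 to 14719 CPM here, against 15650 to 16794 CPM in basal cultures, and the oligodendrocyte markers at 1995 to 2235 CPM, against 2497 to 3287 CPM. With scaling to those genes, which moved the median of all genes to 0.29, the calls were 3 higher (Rims3 1.36, Syt4 1.26 and Unc13b 0.98) and 0 lower, with Cplx2 at −0.36 and Rims2 at −0.35. Between 2 and 7 members were called when 1 library was left out. Cplx2 (−0.52) and Rims2 (−0.58) were lost without 21DIV basal replicate 2, and 7 were called without basal replicate 1. Rims2 was also lost without basal replicate 3 (−0.62) or KCl 15 min replicate 1 (−0.55) or 3 (−0.67).

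After 180 min of KCl at 21DIV 2 release genes were called, both higher, against 4.89% of all genes (2.98% higher and 1.91% lower). Unc13b was at 18.3, 28.3 and 31.6 CPM, above its basal samples (11.4, 15.7 and 9.29 CPM), a log2 fold change of 1.11 ± 0.27 (adjusted p = 0.012). Syt4 was at 302, 612 and 608 CPM (0.79 ± 0.19, adjusted p = 0.0091), and the first of these lay within the range of the basal samples. The summed markers of oligodendrocytes were at 1275 to 1739 CPM here, against 2497 to 3287 CPM in basal cultures, those of dividing progenitors at 294 to 360 CPM, against 494 to 594 CPM, and the pan-neuronal genes at 13384 to 13933 CPM, against 15650 to 16794 CPM. Their part in the result was not tested. Both calls were lost without 21DIV basal replicate 3 (Unc13b 0.94, Syt4 0.73) or KCl 180 min replicate 2 (1.04, 0.64) or 3 (0.96, 0.65), and Syt4 without basal replicate 2 (0.72), while 4 members were called without KCl 180 min replicate 1. Scaling to the pan-neuronal genes called 5 higher, adding Napb (0.73), Syt7 (0.69) and Rims3 (0.65), with the median of all genes at 0.23.

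With 4AP+Bic at 21DIV 0 of the 37 were called after 15 min, against 0.0511% of all genes, and 1 had an unadjusted p under 0.05, of 622 genes in all. DESeq2 also called 0. Syt4 was then at 284 and 281 CPM, within its basal range. After 180 min 6 were called, 4 higher and 2 lower, against 14.2% of all genes (7.39% higher and 6.84% lower). Syt4 was at 777 and 689 CPM, above its 3 basal samples, a log2 fold change of 1.32 ± 0.20 (adjusted p = 4.4e-05). Unc13b was at 31 and 20.3 CPM (1.10 ± 0.30, adjusted p = 0.01), and Rims3 at 16.6 and 22.2 CPM (0.93 ± 0.22, adjusted p = 0.0041). Syt4, Unc13b and Rims3 had all fallen between the stages and were here above the basal 21DIV samples in both libraries. The stage comparison used the same basal 21DIV samples, so the 2 results of any gene named here are not independent. Napb was at 556 and 685 CPM, above 446, 417 and 319 CPM (0.66 ± 0.18, adjusted p = 0.014). Cplx2 was at 433 and 440 CPM, below 779, 1190 and 1100 CPM (−1.23 ± 0.17, adjusted p = 7.9e-06), and Sv2b at 72.4 and 71.1 CPM, below 91.5, 106 and 149 CPM (−0.69 ± 0.20, adjusted p = 0.019). None of the 6 overlapped with its basal samples, like 98.3% of all genes called, as the plot of Syt4, Rims3, Unc13b and Cplx2 by stage and stimulus shows. The log2 ratio of Cplx2 to Cplx1 was 0.74 ± 0.41 (SD, n = 3) in basal cultures and 0.01 ± 0.22 (SD, n = 2) after 4AP+Bic, and this difference was not tested. Dnm1 (−0.50), Cplx1 (−0.46), Stx1a (−0.45), Syn2 (−0.44) and Rab3c (0.41) had an adjusted p under 0.05 with less than a 1.5-fold change.

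**Figure D2:**
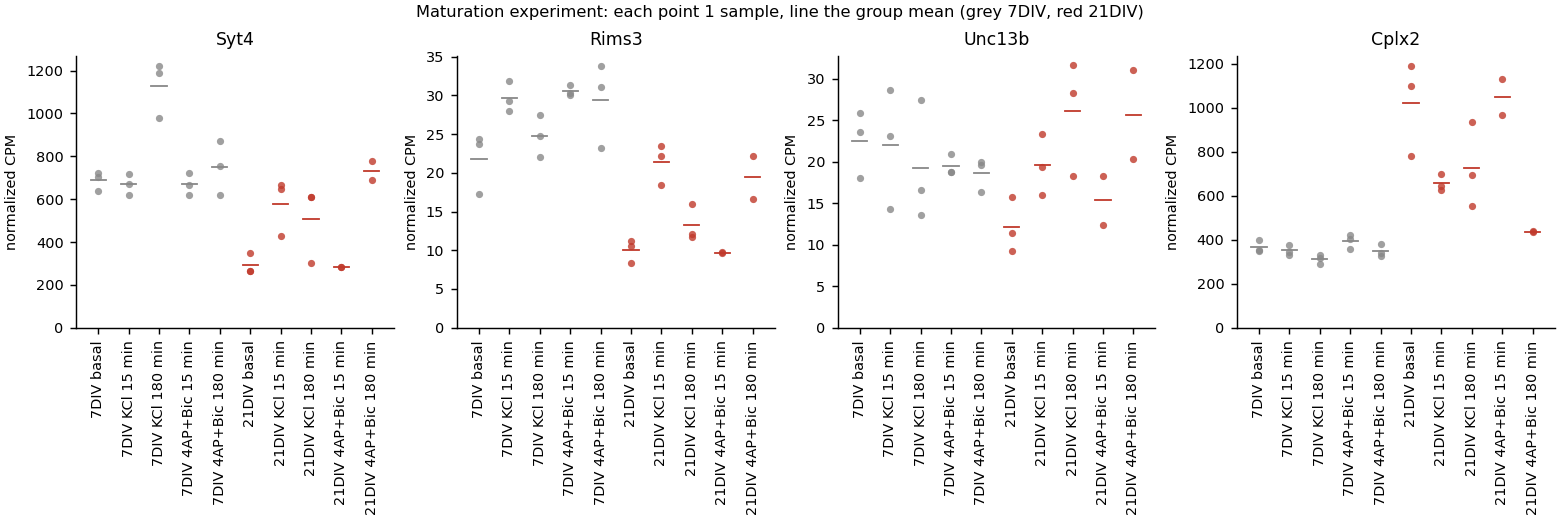
Normalized CPM of Syt4, Rims3, Unc13b and Cplx2 in every sample of the maturation experiment, by stage and stimulus, with a line at the mean of each group. At 21DIV both samples of 4AP+Bic for 180 min lie above the basal samples for the first 3 genes and below them for Cplx2, and at 7DIV the groups lie close together except for Syt4 after KCl for 180 min.

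In these 21DIV cultures after 4AP+Bic for 180 min, the summed astrocyte markers were at 2439 to 4220 CPM, against 5497 to 6589 CPM in basal cultures (3 of 12 called lower), and the oligodendrocyte markers at 1071 to 1728 CPM, against 2497 to 3287 CPM. Of the markers of dividing progenitors 5 of 7 tested were lower. Their part in the result was not tested. Scaling to the pan-neuronal genes moved the median of all genes to 0.12 and left 4 higher and 1 lower, with Sv2b (−0.54) not called. Between 3 and 8 members were called when 1 library was left out, 3 without 21DIV basal replicate 3, which ended the calls of Napb (0.52), Sv2b (−0.46) and Unc13b (0.92), and 8 without basal replicate 1. Without 4AP+Bic 180 min replicate 3 the calls of Napb (0.49), Rims3 (0.71) and Sv2b (−0.68) were lost, and without replicate 2 those of Sv2b (−0.70) and Unc13b (0.75). Of the other presynaptic genes 3 were higher and 8 lower of 72 tested.

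Whether a response differed between the stages was tested directly as an interaction. For 4AP+Bic at 180 min it differed for 2 of the 37, against 4.95% of all genes (2.58% with a higher and 2.38% with a lower response at 21DIV). Syt4 responded more at 21DIV by 1.20 ± 0.28 on the log2 scale (adjusted p = 0.011). At 7DIV it was at 756, 872 and 619 CPM after 4AP+Bic, overlapping with the basal samples, a log2 fold change of 0.12. Cplx2 responded by −1.15 ± 0.22 (adjusted p = 0.0023) more at 21DIV, and at 7DIV was at 338, 380 and 326 CPM (−0.08), again overlapping with the basal samples. The Syt4 difference was lost without 21DIV 4AP+Bic 180 min replicate 2 (1.11). The count was 4 with the likelihood ratio test, DESeq2, RLE size factors, no filter or scaling to the pan-neuronal genes. For KCl at 15 min 1 of the 37 differed, against 2.03% of all genes (0.86% higher and 1.17% lower). This was Syt4, by 1.02 ± 0.26 (adjusted p = 0.033), with 621, 719 and 671 CPM at 7DIV after KCl (−0.04). DESeq2 gave 3 such genes, and the likelihood ratio test and scaling to the pan-neuronal genes 2 each. This call ended in 9 of the 12 fits that left out 1 library, with log2 differences between 0.90 and 1.08, that is without 7DIV basal replicate 2 or 4, any 7DIV KCl 15 min replicate, 21DIV basal replicate 2 or 3, or 21DIV KCl 15 min replicate 1 or 2, and without 21DIV basal replicate 1 the count rose to 5 and without 21DIV KCl 15 min replicate 3 to 2. For KCl at 180 min 0 of 37 differed, against 0.775% of all genes (0.434% higher and 0.341% lower), with 10 release genes at an unadjusted p under 0.05 of 1684 genes and 0 called by DESeq2. Leaving out KCl 180 min replicate 1 of either stage gave 1 call, as did the likelihood ratio test and the fit without the filter. Scaling to the pan-neuronal genes, which moved the median of all genes to 0.33, gave 4, each with a higher response at 21DIV, namely Unc13b (1.67), Sv2b (1.07), Napb (1.05) and Rph3a (0.86). For 4AP+Bic at 15 min 0 differed, against 0.00851%, with 0 at an unadjusted p under 0.05 of 587 genes, and 0 by DESeq2.

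In the stimuli experiment all cultures were 21DIV, and KCl, Bic alone and TTX withdrawal were followed over 3 times. The Bic and KCl groups share their 3 basal samples. Their wells were lettered A at 180 min and B at the earlier times, so this split of time and the well letter cannot be told apart. After 15 min of Bic 1 release gene was called, against 3.42% of all genes (2.4% higher and 1.01% lower). Sv2b was at 126 and 130 CPM, above 81.7, 89.7 and 58 CPM in basal cultures (0.74 ± 0.17, adjusted p = 0.0062). Syt4 was at 1040 and 1330 CPM, above 762, 897 and 789 CPM, but its log2 fold change of 0.54 was under the 1.5-fold limit, as were those of Rph3a (0.51), Cplx2 (0.45) and Snap25 (0.36). After 45 min 3 were called, all higher, against 7.45% of all genes (4.5% higher and 2.95% lower). Cplx2 was at 1150 and 1070 CPM, above 627, 791 and 722 CPM (0.64 ± 0.12, adjusted p = 0.00039), and Vamp1 at 169 and 142 CPM, above 108, 93.4 and 107 CPM (0.59 ± 0.16, adjusted p = 0.015). Syt2 was at 14 and 11.5 CPM, above 7.16, 4.09 and 5.69 CPM (1.14 ± 0.35, adjusted p = 0.037). After 180 min 0 were called, against 0.765% of all genes (0.69% higher and 0.0748% lower), with 2 at an unadjusted p under 0.05 of 1030 genes, and DESeq2 called 0 as well.

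After 15 min of KCl 2 were called, both higher, against 7.23% of all genes (4.53% higher and 2.7% lower). Syt4 was at 1460 and 1410 CPM, above its 3 basal samples (0.81 ± 0.13, adjusted p = 3.1e-05), and at 755 and 925 CPM after 45 min and 929 and 844 CPM after 180 min, where it was not called. Sv2b was at 110 and 124 CPM (0.61 ± 0.16, adjusted p = 0.012). Cplx2 was at 1060 and 1040 CPM, above its basal samples, with a log2 fold change of 0.56 ± 0.12 (adjusted p = 0.0021) that was under the limit, whereas in the maturation experiment the same dose and time had given −0.64. The difference between the experiments was not tested, because their tables were normalized separately. After 45 and 180 min 0 were called, against 0.765% of all genes at each time, with 6 and 4 at an unadjusted p under 0.05, and DESeq2 called 0 at both. The map of fold changes sets all comparisons side by side.

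Several of these counts changed when 1 library was left out. Without basal replicate 5, 0 were called for Bic 15 min (Sv2b 0.58) and 1 for KCl 15 min (Sv2b 0.45), and without basal replicate 2, 4 and 6 were called. Sv2b was also lost without Bic 15 min replicate 2 (0.78) and without KCl 15 min replicate 2 (0.55), and without Bic 15 min replicate 3 the count was 2. For KCl 45 min 1 gene was called without basal replicate 2 or KCl 45 min replicate 2. Of the calls at Bic 45 min, Cplx2 was lost without basal replicate 1 (0.55), Vamp1 without basal replicate 2 (0.53) or Bic 45 min replicate 1 (0.51), and Syt2 without basal replicate 2 (0.96) or 5 (1.13) or either Bic 45 min replicate (1.05 and 1.30). Scaling to the 16 pan-neuronal genes, whose sum was 13075 to 13858 CPM in basal cultures and 14704 to 15754 CPM in the groups of Bic at 15 or 45 min and KCl at 15 min, moved the median of all genes to between −0.18 and −0.17 in these 3 comparisons. It then left 0 called at Bic 45 min, and Syt4 (0.64) at KCl 15 min, while Sv2b was lost in both 15 min comparisons. The new calls with this scaling were Syt3, lower at Bic 15 min (−0.72) and KCl 15 min (−0.71), and Syn3, lower at KCl 15 min (−0.73). Markers of glia moved with these groups too. The summed astrocyte markers were at 3318 to 3869 CPM in basal cultures and at 5152 to 5550 CPM at Bic 15 min (2 of 12 called higher), 5860 to 6661 CPM at Bic 45 min (6 of 12) and 5395 to 5475 CPM at KCl 15 min (4 of 12). Those of oligodendrocytes were at 815 to 1258 CPM in basal cultures and at 1314 to 1606 CPM over the 3 groups (2, 4 and 4 of 9 tested higher). Their part in the result was not tested.

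Silencing with TTX for 48 h gave a wider change. Against basal cultures 12 of the 37 were lower and 2 higher, with a median log2 fold change of −0.21 over the 37 and 0.00 over all genes. Of all 12027 genes tested 21.6% were called, 10.8% in each direction. Of the 7 tested active zone and priming genes 6 were lower (median −1.08), and Rims2 (−0.24) was not called. Of the calcium sensors 3 of 9 were lower, of the SNAREs and partners 3 were lower and 1 higher of 9 (median −0.49), of the vesicle proteins 1 of 9 was higher and 0 lower, and of the retrieval genes 0 of 3 were called. The groups did not overlap for any of the 14, nor for 89.2% of all genes called.

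Syt4 was at 762, 897 and 789 CPM in basal cultures and at 256, 283, 280 and 298 CPM after TTX, a log2 fold change of −1.55 ± 0.11 (adjusted p = 7.5e-14). Rab3c, a small GTPase of synaptic vesicles, was at 605, 622 and 558 CPM and then at 218, 208, 216 and 181 CPM (−1.54 ± 0.10, adjusted p = 4e-15). Unc13b went from 26.1, 38.7 and 21.6 CPM to 12, 6.97, 11.4 and 13 CPM (−1.38 ± 0.25, adjusted p = 2.8e-05), and all 4 silenced samples were below every basal one in each of these genes. Rph3a, which binds Rab3 proteins, went from 362, 460 and 372 CPM to 146, 210, 167 and 152 CPM (−1.24 ± 0.12, adjusted p = 2.5e-10). The scaffolds Pclo (−1.18 ± 0.15) and Bsn (−0.98 ± 0.15) fell with Unc13a (−1.08 ± 0.16), and Rims3 by less (−0.74 ± 0.25, adjusted p = 0.023). The calcium sensor Doc2a was low throughout and fell as well (−1.14 ± 0.32, adjusted p = 0.0057, from between 9.45 and 9.85 to between 3.48 and 6.44 CPM). Of the SNARE machinery Snap25 fell from between 1930 and 1970 to between 1070 and 1310 CPM (−0.73 ± 0.08), and Nsf (−0.63 ± 0.09) and Napb (−0.61 ± 0.15) fell too. Vamp2 (−0.56) and Stx1a (−0.49), the other SNAREs of the complex, had adjusted p under 0.05 but changed less than 1.5-fold.

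The 2 genes that rose were Syn3, from 43.3, 39.8 and 64.1 CPM to 102, 119, 78.7 and 124 CPM (1.13 ± 0.15, adjusted p = 2.8e-07), and Vamp1, from 108, 93.4 and 107 CPM to 170, 178, 142 and 143 CPM (0.62 ± 0.14, adjusted p = 0.00067). Each of the 4 silenced samples was above the 3 basal ones in both genes. Cplx2 was higher by less than the limit (0.48 ± 0.10, adjusted p = 0.0004). The log2 ratio of Syn2 to Syn3 was 3.65 ± 0.39 (SD, n = 3) in basal and 2.68 ± 0.33 (SD, n = 4) in silenced cultures, and that of Vamp1 to Vamp2 was −4.97 ± 0.13 and −3.78 ± 0.24.

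The sum over the members was 19786 to 20451 CPM in basal and 16111 to 17061 CPM in silenced cultures, and that of the pan-neuronal genes 13075 to 13858 and 12244 to 13671 CPM (2 of 16 called lower). All 12 astrocyte markers were higher after TTX, their sum going from between 3318 and 3869 to between 8652 and 9603 CPM, as were 6 of 9 oligodendrocyte markers, 5 of 7 of dividing progenitors and 3 of 7 of GABAergic neurons. Their part in the result was not tested. All 8 genes of the stimulation check were lower. Scaling to the pan-neuronal genes left 2 higher and 9 lower, with Rims3 (−0.65), Nsf (−0.54) and Napb (−0.52) lost. When 1 library was left out between 10 and 15 were called. Rims3 was lost in 5 of these 7 fits, without basal replicate 2 (−0.70) or 5 (−0.63) or basal TTX replicate 1 (−0.69), 3 (−0.65) or 4 (−0.72). Napb was lost without basal replicate 2 (−0.48) or basal TTX replicate 4 (−0.49), Nsf without basal replicate 2 (−0.58), and Vamp1 without basal replicate 2 (0.55) or basal TTX replicate 2 (0.56). Of the other presynaptic genes 5 were higher and 17 lower of 74 tested (median −0.21), with Ston2 (1.79) and Syt17 (1.66) the largest rises and Syt12 (−2.29) and Synj2 (−2.06) the largest falls.

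The last comparisons followed the release genes after TTX was withdrawn, against the same 4 basal TTX samples. At 15 min 0 were called, against 0% of all genes, with 3 at an unadjusted p under 0.05 of 756 genes, and DESeq2 called 0. At 45 min 1 was called, against 0.382% of all genes. Pclo was at 79.5 and 77.5 CPM, above 49.2, 34.3, 47.9 and 40.1 CPM in silenced cultures (0.88 ± 0.17, adjusted p = 0.0042) and below the 91.4, 92.3 and 106 CPM of cultures without TTX. Scaling to the pan-neuronal genes kept it (0.90). The call ended with counts summed over the transcripts of the gene (0.75, adjusted p = 0.081) and without TTXw 45 min replicate 1 (0.87). At 180 min 20 of the 37 were lower and 0 higher, against 14% of all genes called (7.33% higher and 6.69% lower), with a median log2 fold change of −0.65 over the 37 and of 0.02 over all genes. These were 7 of 9 vesicle proteins (median −0.73), 6 of 9 SNAREs and partners (−0.73), 2 of 3 retrieval genes (−0.88), 4 of 9 calcium sensors (−0.37) and 1 of 7 active zone and priming genes (−0.13).

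Vamp1, which had risen under TTX, was at 77.2, 78.6 and 50.1 CPM, below 170, 178, 142 and 143 CPM (−1.18 ± 0.15, adjusted p = 2.4e-07). At 15 min it had been at 127, 142 and 174 CPM and at 45 min at 103 and 148 CPM. Sv2b was at 41.9, 37.4 and 50.9 CPM, below 85.1, 69.7, 98 and 102 CPM (−1.06 ± 0.17, adjusted p = 8e-06). Doc2b, a high-affinity calcium sensor, was at 3.27, 5.68 and 6.83 CPM, below 11.3, 8.71, 10 and 15.9 CPM (−1.17 ± 0.38, adjusted p = 0.024). Syt2 was at 3.27, 1.42 and 1.52 CPM, below 5.32, 5.81, 6.44 and 7.59 CPM (−1.64 ± 0.49, adjusted p = 0.013), but rested on 2 to 5 counts a library. Among the better-counted genes, Cplx1 fell from between 343 and 475 to between 196 and 208 CPM (−1.02 ± 0.12), Syngr1 from between 287 and 308 to between 149 and 164 CPM (−0.96 ± 0.12), Nsf from between 726 and 783 to between 384 and 408 CPM (−0.94 ± 0.09, adjusted p = 8.7e-10), and Syt1 from between 1100 and 1200 to between 563 and 712 CPM (−0.82 ± 0.09). Synj1 (−0.91), Amph (−0.88) and Napb (−0.88) fell by about as much. The other 9 were Syn1 (−0.81), Syngr3 (−0.78), Cplx2 (−0.73), Sv2a (−0.73), Snap25 (−0.68), Syp (−0.68), Syn3 (−0.65), Syt3 (−0.65) and Rab3c (−0.62). None of the 20 overlapped with its silenced samples, as for 85.1% of all genes called.

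The 17 genes not called at 180 min lay between −0.57 and 0.74. Most of the active zone genes that had been lower under TTX are among them, with Unc13b at 0.71 ± 0.28 (adjusted p = 0.073, at 11.8, 20.3 and 22 CPM), Pclo at 0.31, Unc13a at 0.12, Rims3 at −0.22 and Bsn at −0.42. Syt4 was at 221, 207 and 221 CPM (−0.37, adjusted p = 0.022), under the 1.5-fold limit and below its 4 silenced samples. Rph3a was at −0.12. The comparison of basal TTX with basal and that of TTXw with basal TTX share the basal TTX samples, so the values of a gene in both are not independent, and the plot of both fold changes for each gene is to be read with that in view.

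**Figure D3:**
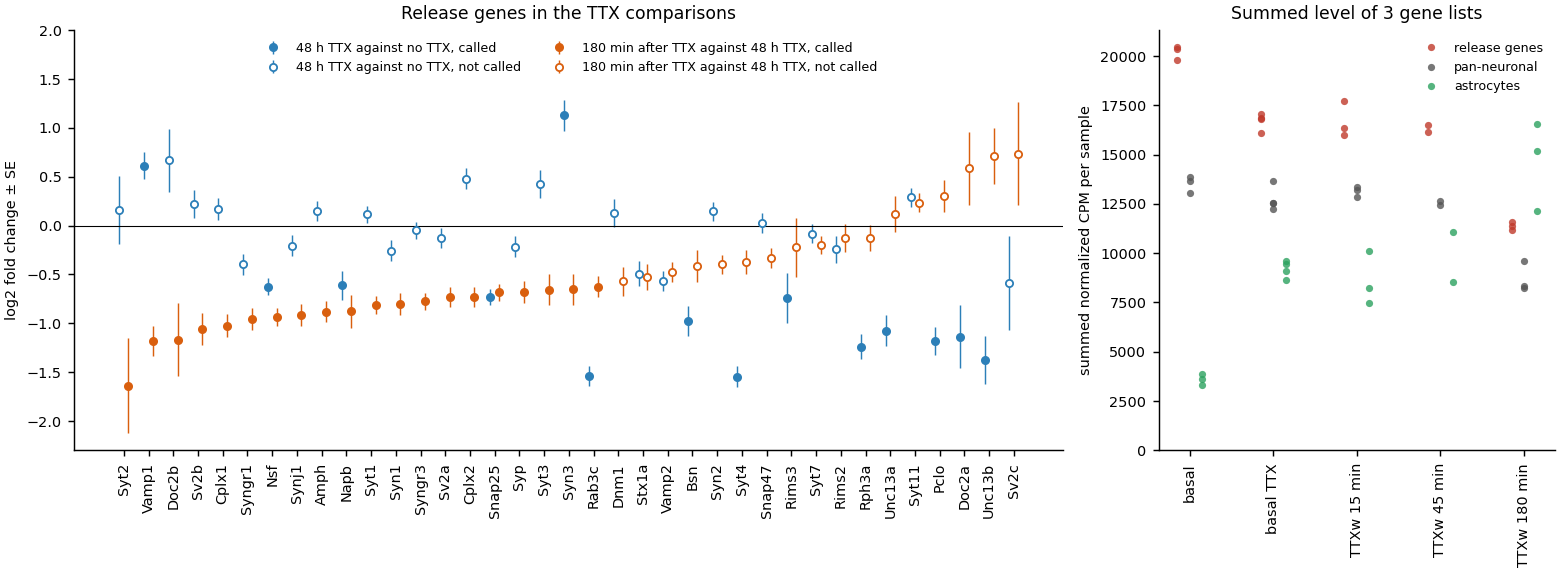
Left, log2 fold change ± SE of the 37 tested release genes for 48 h of TTX against no TTX (blue) and 180 min after TTX withdrawal against 48 h of TTX (orange), filled where called. Right, summed normalized CPM of the release genes, the 16 pan-neuronal genes and the astrocyte markers in each sample, where the release gene sum is 16111 to 17061 CPM in basal TTX and 11182 to 11599 CPM at TTXw 180 min.

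The release genes did not fall alone at 180 min. The sum of the 16 pan-neuronal genes was 12244 to 13671 CPM in basal TTX and 8233 to 9584 CPM at TTXw 180 min (5 of 16 called lower, median −0.43), and 5 of 7 tested markers of GABAergic neurons were lower (median −0.91). The astrocyte sum was 8652 to 9603 and 12145 to 16538 CPM (6 of 12 higher), and the oligodendrocyte sum 2249 to 2299 and 3252 to 4042 CPM (6 of 9 higher). With samples scaled to the pan-neuronal genes, the median of all genes moved to 0.57 and that of the 37 to −0.10. Vamp1 (−0.62) was then the 1 release gene still lower, and 6 were higher, namely Sv2c (1.29), Unc13b (1.26), Doc2a (1.15), Pclo (0.86), Syt11 (0.78) and Unc13a (0.67). Relative to pan-neuronal RNA, 19 of the 20 falls were thus not called, while relative to all RNA they were. All 19 still had negative log2 fold changes with the pan-neuronal scaling. Sv2b (−0.50), Cplx1 (−0.47), Syngr1 (−0.40), Nsf (−0.38), Synj1 (−0.35), Amph (−0.33) and Syt1 (−0.26) kept an adjusted p under 0.05 at less than 1.5-fold. With TMM scaling, leaving out 1 library gave between 17 and 21 calls, 17 without TTXw 180 min replicate 2. The calls lost in any of these fits were those of Doc2b without basal TTX replicate 4 (−0.92) or TTXw 180 min replicate 1 (−0.95) or 2 (−1.25), Rab3c without TTXw 180 min replicate 2 (−0.57) or 3 (−0.56), Syn3 without basal TTX replicate 4 (−0.56) or TTXw 180 min replicate 2 (−0.55), Syt2 without TTXw 180 min replicate 2 (−1.37) and Syt3 without basal TTX replicate 2 (−0.52). Of the other presynaptic genes 21 of 74 tested were lower and 0 higher (median −0.33), led by Syt10 (−1.86) and Dnajc6 (−1.13).

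Across the 17 stimulus comparisons of both experiments, 25 of the 37 genes were called at least once, against 34.8% of the 11289 genes tested in all of them, and 8 comparisons had 0 release genes called. Of the 25, 15 were called at TTXw 180 min only. In any of the other 16 comparisons 10 of the 37 were called and 27 in none, against 26.4% of all genes called. Syt4 and Sv2b were called most often, in 5 comparisons each, Syt4 higher in all 5 and Sv2b higher in 2 and lower in 3. Several of these comparisons share basal samples, so the calls of a gene are not independent. With pan-neuronal scaling Sv2b stayed called, among its 5, only after KCl for 180 min at 7DIV. Cplx2 was called in 4, higher in 1 and lower in 3. The 12 genes called in none were Syn2, Sv2c, Syt7, Syt11, Doc2a, Rph3a, Snap47, Vamp2, Stx1a, Bsn, Unc13a and Dnm1. Of these, Rph3a, Bsn, Doc2a and Unc13a were among those that fell with 48 h of TTX.

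Some genes have several counted 3′ ends, and a change could belong to 1 of them. After near-equal transcripts were merged, 4 members of the first experiment and 5 of the second had more than 1 end with at least 10% of the gene's counts. Both ends of Syn2 rose between the stages (3.0 and 3.15), and both ends of Syt4 fell (−1.15 and −1.17). Under TTX the ends of Syt4 (−1.53 and −1.63), Unc13b (−1.36 and −1.69), Unc13a (−1.06 and −1.04) and the 4 ends of Pclo (−1.16, −0.62, −0.89 and −0.95) all fell. Over all genes each distinct set of counts was taken as an end, without merging or the 10% minimum. Of these ends 35.5% were called between the stages and 22.8% under TTX. No gene had a called rise at 1 end and a called fall at another.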

How the data were processed

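RNA of whole cultures was made into CEL-Seq2 libraries, which tag 3′ ends. Per the labels and the study's methods, the authors aligned the reads to mm10 with STAR and assigned them to RefSeq transcripts with the End Sequence Analysis Toolkit, and the deposited values are whole-number counts that were not normalized. Whether reads sharing a molecular identifier were collapsed is not given in the sources used here, so floors cover counting error only. Transcripts were matched by accession to RefSeq GRCm38.p6 (80.8% of 97700 and 80.9% of 96722), and 18.5% and 19.2% of the counts lay on unmatched transcripts, which were left out. The transcript with the most counts represented its gene. It was chosen within each experiment, and differed between them for Syn3, Sv2b, Syt7, Snap25, Vamp1, Stx1a and Dnm1. All counted transcripts of Vamp1 had equal counts in both experiments, as had those of Sv2b in the maturation experiment. Columns were matched to samples by the well and name in the labels. In the maturation experiment all younger cultures had wells lettered A or B, and all 21DIV cultures C, D or E. The letter E was found only for 4AP+Bic 180 min at 21DIV. In the stimuli experiment all basal TTX and TTXw samples were A, and basal samples A or B. KCl and Bic samples were A at 180 min and B at the earlier times. The well letter thus cannot be told apart from stage in the maturation experiment. In the KCl and Bic groups of the stimuli experiment it cannot be told apart from early or late time. Its part in the results was not tested. Basal replicate 5 of the stimuli experiment is numbered 5 in 1 label and 2 in another, as in its column, and the column of TTXw 180 min replicate 1 is headed 2DIV where both labels give 21DIV. Pairs of replicates differed by a chi-square per degree of freedom of 2.17 to 20.2 (median 4.28, 48 pairs), so none was counted as a repeat deposit.

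Counts were tested in R 4.3.3 with edgeR 4.0.16 (TMM, genes over 5 CPM in at least 2 samples, quasi-likelihood test). The stage comparison used its 6 basal samples, and all other tests used 1 fit for the 28 or 27 samples of an experiment. Alternatives were the likelihood ratio test, DESeq2 1.42.0, RLE size factors, no filter, thinned counts, counts summed over transcripts, other sets of samples in the fit, a block for the replicate number, and fits that leave out each library in turn. Tests were run on simulated data first. Per-sample values are given for at most the 4 largest rises and 4 largest falls called in a comparison, and for other members where a result turns on them. The stimulation check names Fos, Arc and Npas4. Of the other presynaptic genes the 2 largest rises and falls are named. The members, lists and tests were chosen with earlier results of these data known. Tables and figures were made with Python 3.11.15, numpy 2.4.6, pandas 2.3.3 and matplotlib 3.10.9.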

Additional observations from a re-analysis of the deposited data

Results flagged for a closer look

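The response of Syt4 to KCl at 15 min differed between the stages by 1.02 on the log2 scale, and its response to 4AP+Bic at 180 min by 1.20, larger at 21DIV in both. The response of Cplx2 to 4AP+Bic at 180 min differed by −1.15, a fall at 21DIV. These came from tests of the difference itself, which called 1 of 37 release genes for KCl at 15 min and 2 of 37 for 4AP+Bic at 180 min. Of all genes 2.03% and 4.95% were called. The Syt4 difference for KCl was lost in most fits that left out 1 library. That for 4AP+Bic was 1.11 without 21DIV 4AP+Bic 180 min replicate 2.

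The 1 group of 4 samples, basal TTX, was looked at for 36 release genes, and for 1 gene a sample stood apart from the other three. Snap47, a SNAP-25 relative, was at 681 CPM in basal TTX replicate 1, while the other basal TTX samples lay between 760 and 772 CPM. Chance alone sets a sample apart in about 1 in 20 such sets of values.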

How the results depend on the processing

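The 79 calls of a gene in a comparison kept their direction under every alternative run. They stayed called for 79 with the likelihood ratio test and with RLE size factors, 78 with DESeq2, 77 without the filter, 73 of 78 with counts summed over transcripts, 68 with counts thinned to the smallest library, 53 of 58 with only the groups compared in the fit, 48 with scaling to the 16 pan-neuronal genes (added after the data were seen), and 436 of 512 when 1 library was left out. The cause of lost calls was not tested, except that thinning and smaller fits use fewer counts or samples.

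Counts of called members moved by over 1.5 times as follows, apart from the replicate block and fits that leave out 1 library, which are given further on, and in the other alternatives by less. For KCl 180 min at 7DIV (2) they were 1 with pan-neuronal scaling and 1 with only the groups compared. For KCl 15 min at 21DIV (4) they were 2 with thinning and 2 with only the groups compared, for KCl 180 min at 21DIV (2) 5 with pan-neuronal scaling and 1 with only the groups compared, and for 4AP+Bic 180 min at 21DIV (6) 2 with thinning. For the stage difference of KCl 15 min (1) they were 2 with the likelihood ratio test, 3 with DESeq2 and 2 with pan-neuronal scaling, for that of KCl 180 min (0) 1 with the likelihood ratio test, 1 without the filter and 4 with pan-neuronal scaling, and for that of 4AP+Bic 180 min (2) 4 with the likelihood ratio test, DESeq2, RLE size factors, no filter and pan-neuronal scaling. They were 2 with thinning for Bic 15 min (1), 0 with pan-neuronal scaling and 1 with summed transcripts for Bic 45 min (3), 0 with summed transcripts for TTXw 45 min (1), and 7 with pan-neuronal scaling for TTXw 180 min (20). Members with more than 1 counted 3′ end were 19 in each experiment before near-equal transcripts were merged, and 4 and 5 after it, a step added after the data were seen.

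Leaving out 1 library gave 19 to 22 called members for the stage comparison, 0 to 1 for KCl 180 min at 7DIV, 2 to 7 for KCl 15 min, 0 to 4 for KCl 180 min and 3 to 8 for 4AP+Bic 180 min at 21DIV, 0 to 5, 0 to 1 and 1 to 3 for the stage differences of KCl 15 min, KCl 180 min and 4AP+Bic 180 min, 0 to 4 for Bic 15 min, 2 to 3 for Bic 45 min, 1 to 6 for KCl 15 min and 0 to 1 for KCl 45 min of the stimuli experiment, 0 to 1 for TTXw 45 min, 17 to 21 for TTXw 180 min and 10 to 15 for basal TTX. It gave 0 in the other comparisons. Where it left 1 library in a group, that library was taken to vary like the other groups.

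Over all genes, the count called in TTXw 180 min was 1687 (882 higher) and 4826 (4754 higher) with pan-neuronal scaling, in KCl 15 min at 21DIV 734 (377 higher) and 1441 (1315 higher), and in KCl 180 min at 21DIV 574 (350 higher) and 1138 (1065 higher). For the stage differences of KCl it was 238 and 91 at 15 and 180 min, 424 and 251 with the likelihood ratio test, 394 and 216 with DESeq2, and 703 and 585 with pan-neuronal scaling.

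Samples of different groups share replicate numbers, but samples with the same number did not deviate together (correlations of −0.247 to 0.114 in the maturation experiment and −0.094 to 0.103 in the stimuli experiment), so the numbers do not pair them. With the replicate block 63 of the 79 calls stayed. The counts of called members were then 0 for KCl 180 min at 7DIV, 0 for the stage difference of KCl 15 min, 0 for Bic 15 min, 1 for KCl 15 min of the stimuli experiment and 0 for TTXw 45 min, where Pclo had 0.82 with an adjusted p of 0.052. In the other comparisons the count moved by less than 1.5 times.

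Groups of 2 to 4 samples limit these tests, and genes under about 15 CPM (Syt2, Doc2a, Doc2b, Sv2c, Rims3 and Unc13b in some groups) rest on few counts.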

Other observations

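Ratios between relatives are taken within a sample and do not move with its scaling, so they need no choice of reference genes. All are log2 ratios of counts, mean ± SD over samples, and were not tested. At 21DIV the ratio of Rims3 to Rims2 was −2.92 ± 0.38 (n = 3) in basal cultures and −1.19 ± 0.03 (n = 3) after 15 min of KCl, where its 3 samples lay between −1.22 and −1.16, above the basal range of −3.30 to −2.55. After 4AP+Bic for 180 min it was −1.37 ± 0.57 (n = 2). The ratio of Unc13b to Unc13a was −2.47 ± 0.48 (n = 3) in basal cultures, −1.16 ± 0.29 (n = 3) after 180 min of KCl and −1.04 ± 0.12 (n = 2) after 180 min of 4AP+Bic. Neither group overlapped with the basal samples, but overlap was not counted for other pairs of genes. Rims3 and Unc13b were already called in the comparisons given here, so these ratios restate those calls.

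The ratio of Syt4 to Syt1 was −0.37 ± 0.15 (n = 3) in basal cultures of the stimuli experiment, −2.03 ± 0.08 (n = 4) after 48 h of TTX and −1.58 ± 0.12 (n = 3) at 180 min after its withdrawal. At 15 and 45 min of withdrawal it was −2.15 ± 0.10 (n = 3) and −2.02 ± 0.06 (n = 2), and the samples at 180 min were thus the highest of the 3 times, still below every basal sample. Syt4 itself did not rise at 180 min. Against basal TTX its log2 fold change was −0.37, and that of Syt1, the lower part of the ratio, was −0.82. The ratio of Vamp1 to Vamp2 was −4.97 ± 0.13 in basal cultures, −3.78 ± 0.24 under TTX and −4.54 ± 0.35 at 180 min of withdrawal.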
